A study of Mus musculus with 18 samples.

Results

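The phagocyte NADPH oxidase was followed through its genes Cybb, Cyba, Ncf1, Ncf4 and Rac2, taken by symbol from a table of normalized counts: 5 genes of the 54446 listed. RNA sequencing was performed on 18 libraries of mouse eosinophils, all of them cultured with apoptotic cells (ACs), with 3 libraries in each of 6 groups. The comparisons ask whether a Type 1 stimulus (E. coli, IFN-γ or both) or a Type 2 stimulus (IL-4) changes these transcripts in eosinophils that are also exposed to ACs. Eosinophils cultured without ACs were not analysed here.

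The eosinophils were washed from the peritoneum of mice with an Il5 transgene (Il5Tg), and the labels give the strain as C57BL/6. Cells bearing Thy1.2 or B220, markers of T and B cells, were removed with beads before culture. No bead step against macrophages is named, and purity was checked by flow cytometry for CD45 and Siglec-F before culture and again after the cells were recovered. The ACs were wild-type thymocytes treated with dexamethasone, a glucocorticoid that kills them by apoptosis. After culture, all eosinophils were taken out again with beads against Siglec-F, a surface lectin of mouse eosinophils. The Type 1 experiment had the groups ACs, E. coli + ACs, IFN-γ + ACs and IFN-γ + E. coli + ACs, and the last of these received IFN-γ before the bacteria. The IL-4 experiment had the groups IL-4 + ACs and ACs, so there were 2 groups with ACs as the sole addition, told apart by how the samples are described. Every cell analysed came from an animal with excess IL-5, the cytokine on which eosinophils depend, and eosinophils of other mice may differ.

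The phagocyte oxidase moves electrons from NADPH across a membrane to oxygen and so makes superoxide, the first of the reactive oxygen species with which phagocytes attack ingested microbes. Cybb encodes gp91phox, the catalytic subunit, and Cyba encodes p22phox, which holds it stable in the membrane. In resting cells the organizer p47phox (Ncf1) and its partner p40phox (Ncf4) wait in the cytosol and move to the membrane on activation, where the GTPase Rac2 joins them. Eosinophils are known for a strong oxidative burst, and IFN-γ is a textbook inducer of the oxidase in macrophages and neutrophils.

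The stretches before the start sites of Cybb, Ncf1 and Cyba are shown, the 3 of the 5 genes that were matched to a promoter. Whether these stretches bear on the changes of the 3 transcripts was not tested. Each is 250 bases, 5′ to 3′ on the gene's own strand and ending just before the first base of the RefSeq transcript (GRCm38.p6). The RefSeq start of Cybb lies inside the gene span given further on. Capitals mark the pattern of interferon response elements, which is GAAA, any 2 bases and GAAA again, and CCAAT, the CCAAT box, with both strands read.
Cybb (chrX:9469325-9469574, minus strand): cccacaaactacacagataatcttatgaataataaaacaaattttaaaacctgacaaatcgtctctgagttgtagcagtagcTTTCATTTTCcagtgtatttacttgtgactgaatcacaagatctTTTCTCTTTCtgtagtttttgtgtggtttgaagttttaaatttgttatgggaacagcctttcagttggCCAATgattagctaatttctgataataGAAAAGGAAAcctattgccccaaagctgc
Ncf1 (chr5:134229626-134229875, minus strand): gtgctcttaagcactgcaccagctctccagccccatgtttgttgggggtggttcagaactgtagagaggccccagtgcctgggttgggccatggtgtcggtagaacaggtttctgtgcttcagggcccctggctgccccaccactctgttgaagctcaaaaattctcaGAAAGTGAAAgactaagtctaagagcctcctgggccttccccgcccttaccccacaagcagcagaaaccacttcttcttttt
Cyba (chr8:122432941-122433190, minus strand): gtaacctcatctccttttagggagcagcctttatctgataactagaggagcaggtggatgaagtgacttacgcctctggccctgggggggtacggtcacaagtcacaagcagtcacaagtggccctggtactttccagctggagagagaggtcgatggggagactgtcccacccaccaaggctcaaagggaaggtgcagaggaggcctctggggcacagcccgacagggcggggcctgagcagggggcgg
The paired GAAA pattern was matched 3 times before Cybb, 168 to 159, 124 to 115 and 29 to 20 bases before the start, the first 2 of them on the opposite strand. It was matched once before Ncf1, 82 to 73 bases before the start, and not before Cyba. Of 32851 mouse promoters of the same length, 978 (2.98%) held at least 1 match and 4 (0.0122%) held at least 3, a count made after the matches of Cybb were seen. TTCNNNGAA, the pattern of gamma-activated sites with N for any base, was found in 7.02% of promoters and matched once, before Ncf1, 88 to 80 bases before the start, where it overlaps the paired GAAA match. CCAAT, found in 33.8% of promoters, was matched once before Cybb, 56 to 52 bases before the start, and GAGGAA, a core read by ETS factors and found in 23.3%, was matched in none of these stretches. A match is a run of letters and does not show that a factor binds there.

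By the annotation of GRCm38, Cybb (ENSMUSG00000015340.10) spans chromosome X from 9435252 to 9487771 and Cyba (ENSMUSG00000006519.11) spans chromosome 8 from 122424776 to 122432930, both on the minus strand. Ncf1 (ENSMUSG00000015950.13) spans chromosome 5 from 134220053 to 134229625 on the minus strand. Ncf4 (ENSMUSG00000071715.12) and Rac2 (ENSMUSG00000033220.7) both lie on chromosome 15, from 78244801 to 78262580 on the plus strand and from 78559167 to 78572783 on the minus strand. Gtf2ird2, on the opposite strand from Ncf1 and overlapping it, had at most 77 reads in any library, and Gm20388, opposite Cyba, was listed at 0 in all.

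In the Type 1 experiment the reads counted on genes ran from 2216917 to 5078760 per library. Every library with IFN-γ was shallower, at 2216917 to 4090386, than every library without it, at 4234312 to 5078760. The part of depth in the results with IFN-γ was not tested. In the IL-4 experiment 4 libraries had between 5294244 and 7782072 and both replicate 3 libraries were shallow, at 849705 with IL-4 and 779421 without. Every library held the eosinophil surface receptors, with Siglecf between 1514 and 3367 normalized counts, Ccr3 between 2623 and 4934 and Il5ra between 102 and 455. Epx, eosinophil peroxidase, never exceeded 25.7 and Prg2, major basic protein, never exceeded 270.3. The 9 eosinophil markers, of which Adgre1 is also found on macrophages, summed to between 6837 and 17548. In the Type 1 experiment their mean sum was below that of the 9 macrophage markers with ACs (9568 beside 19704) and IFN-γ (7416 beside 31115). It was above it with E. coli (11681 beside 9384) and both stimuli (10771.5 beside 9261). In the IL-4 experiment it was below it with IL-4 (16794 beside 26312) and without (13184 beside 31671). These sums run over different genes, so they do not give the share of each cell type. The 12 thymocyte markers summed to between 45.5 and 180.3 in all libraries and the 4 B cell markers to between 12.03 and 89.94. The 9 neutrophil markers summed to between 1114 and 4769, most of it Retnlg, with Elane and Mpo, enzymes of neutrophil granules, listed at 0 in all libraries of 3 Type 1 groups. Of the 5 tested against ACs, 3 rose and 0 fell with E. coli, and 3 rose and 0 fell with IFN-γ. With both stimuli 4 rose and 1 fell, beside 10.3%, 21.4% and 31.9% of all genes in that order. The median log2 differences of the 5 were 2.68, 1.43 and 1.93. Neutrophils express the oxidase too, and their part in the results below was not tested.

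Macrophage markers moved with the Type 1 groups. Their 9 genes, none of them at 0 throughout a group, summed to between 16762 and 22063 in ACs, 7931 and 10252 in E. coli + ACs, 26546 and 36333 in IFN-γ + ACs, and 8914 and 9775 in IFN-γ + E. coli + ACs. Against ACs, 6 of the 9 fell and none rose with E. coli, 4 rose and none fell with IFN-γ, and 5 fell and 1 rose with both. Of all genes, 10.3%, 21.4% and 31.9% passed the threshold in that order, in either direction. In the IL-4 experiment the macrophage sums were 20659 to 35913 with IL-4 and 25903 to 38431 without. None of the 9 passed the threshold there, beside 1.09% of all genes. Macrophages express the oxidase too. Within the Type 1 experiment Cybb was higher than with ACs in the 2 groups with the lowest macrophage sums and in the group with the highest. The part of macrophages in the results below was not tested. In RNA from a population, fewer cells of a type and less RNA per cell cannot be told apart.

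A transcript was called past the threshold, and is said to rise or fall, where the Benjamini-Hochberg adjusted p of limma, over all genes tested, was under 0.05 and the difference at least 1.5-fold. All 5 oxidase transcripts were abundant enough to be tested in both experiments. Cybb and Ncf1 rose with IFN-γ + E. coli and Ncf1 rose with E. coli, while IFN-γ alone and IL-4 took none of the 5 past the threshold. With E. coli, 1 of 5 was past it, beside 10.3% of the 10166 genes tested (5.05% higher), and with IFN-γ 0 of 5, beside 21.4%. With both stimuli it was 2 of 5, beside 31.9% (14.7% higher), and with IL-4 0 of 5, beside 1.09% of 10669. Without regard to size of change, 3 of 5 had an adjusted p under 0.05 with E. coli (13.5% of all genes), 2 with IFN-γ (27.4%), 3 with both (39.1%) and 0 with IL-4 (1.09%). The 3 libraries of E. coli + ACs lay above all 3 of ACs for each of the 5 transcripts, beside 19.9% of genes, with 38.3% not overlapping in either direction. With IFN-γ none of the 5 overlapped ACs, 3 above and 2 below, beside 42.9%, though Ncf4 was apart by less than the value of 1 read. With both stimuli 4 of 5 did not overlap (48.8%), and with IL-4 2 of 5 (17.3%). The median log2 difference of the 5 was 0.37 with E. coli, 0.29 with IFN-γ, 0.36 with both and -0.04 with IL-4, beside medians of all genes between -0.05 and 0.00. The 3 Type 1 comparisons share their ACs libraries, so their results are not independent.

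**Figure D1:**
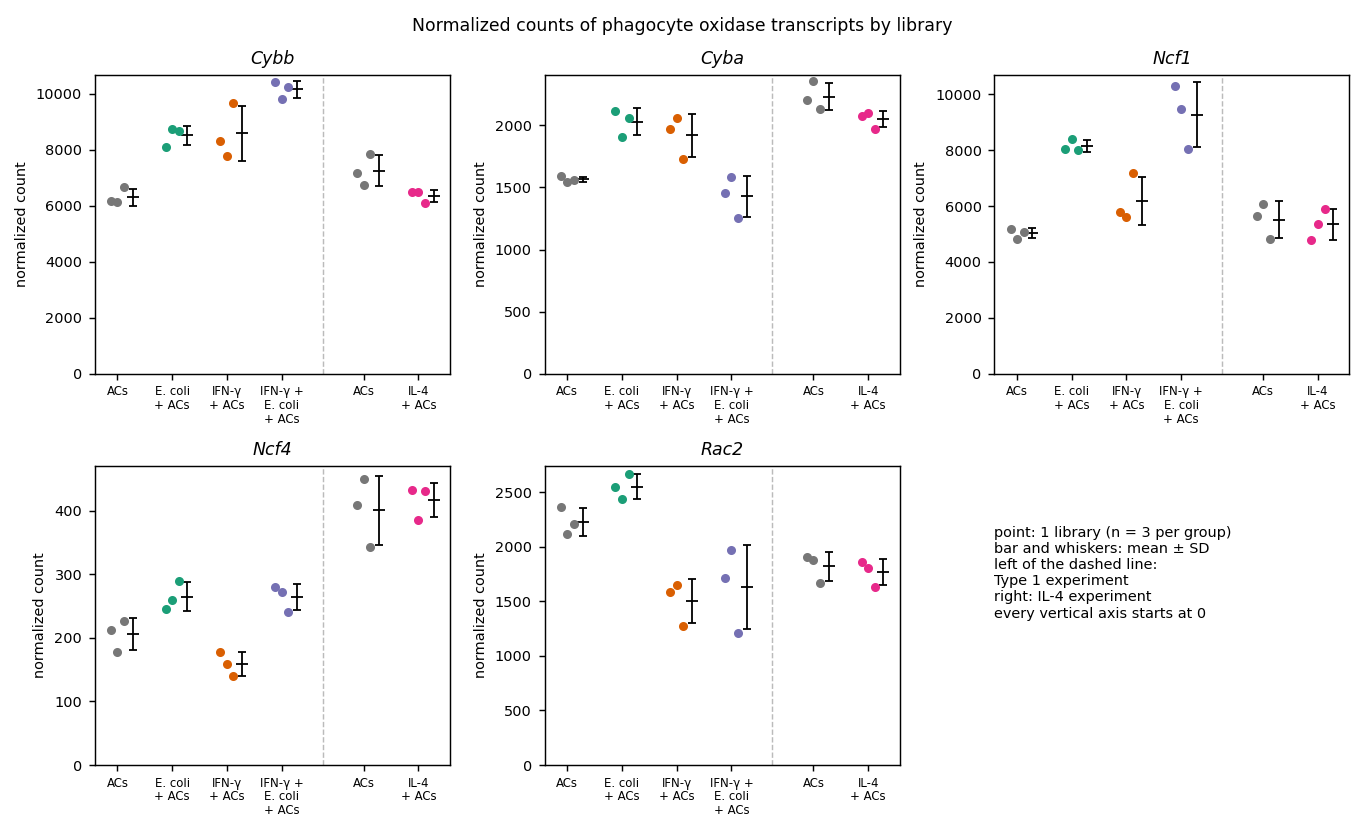
Normalized counts (vertical axes, from 0) of the 5 oxidase transcripts in each of the 18 libraries, by group. Points are libraries and the bar with whiskers is the mean ± SD (n = 3). Within the Type 1 experiment Cybb was highest with IFN-γ + E. coli + ACs, at 9805 to 10407, while Rac2 was lowest in the 2 groups with IFN-γ, at 1213 to 1972.

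In the Type 1 experiment Cybb, the catalytic subunit, stood highest where IFN-γ and E. coli were combined and lowest with ACs. Its normalized counts were 6150, 6114 and 6651 in ACs and 8106, 8743 and 8676 in E. coli + ACs. They were 8320, 7772 and 9680 in IFN-γ + ACs and 10407, 9805 and 10232 in IFN-γ + E. coli + ACs. The ACs libraries lay below all others of the experiment and the combined group above all others, whereas the groups with a single stimulus overlapped. The means ± SD were 6305 ± 299.99 with ACs, 8508 ± 349.8 with E. coli, 8591 ± 982 with IFN-γ and 10148 ± 309.7 with both (n = 3 each). Against ACs, the log2 difference of Cybb was 0.69 with both stimuli (SE 0.10, 1.61-fold, limma adjusted p = 2.5e-05), past the threshold. With E. coli it was 0.43 (1.35-fold, limma adjusted p = 0.0068) and with IFN-γ 0.44 (1.36-fold, limma adjusted p = 0.0029), both short of 1.5-fold. The combined stimulus exceeded E. coli alone by 0.25 on the log2 scale (limma adjusted p = 0.074) and IFN-γ alone by 0.25 (limma adjusted p = 0.097), without overlap of libraries but short of the test. The 2 single differences add up to more than the combined one, by an interaction of -0.19 with a 95% interval from -0.49 to 0.11 (limma adjusted p = 0.49). When libraries were rescaled to an equal upper quartile of the genes tested, the combined difference was 0.55 and short of 1.5-fold, and with the upper quartile taken over each library's own genes above 0 it was 0.38.

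Cyba, the membrane partner of gp91phox, did not follow it. Its normalized counts were 1590, 1547 and 1559 in ACs, 2117, 1908 and 2062 in E. coli + ACs, 1967, 2061 and 1730 in IFN-γ + ACs, and 1454, 1583 and 1254 in IFN-γ + E. coli + ACs. Either stimulus alone gave libraries above every ACs library, and the combination gave libraries that overlapped ACs and lay below both single stimuli. The means were 1565 ± 22.3 with ACs, 2029 ± 108.3 with E. coli, 1919 ± 170.5 with IFN-γ and 1430 ± 165.7 with both (SD, n = 3 each). The log2 difference of Cyba from ACs was 0.37 with E. coli (SE 0.11, limma adjusted p = 0.03), 0.29 with IFN-γ (limma adjusted p = 0.058) and -0.14 with both (95% interval -0.37 to 0.10, limma adjusted p = 0.35), none past the threshold. The combined group was lower than E. coli + ACs by a log2 difference of -0.51 (0.703-fold, limma adjusted p = 0.0023) and lower than IFN-γ + ACs by -0.43 (0.744-fold, limma adjusted p = 0.0099), both short of 1.5-fold. The test of the interaction asks whether IFN-γ acted alike with and without E. coli. For Cyba it gave a log2 difference of -0.80 (SE 0.16, 95% interval -1.13 to -0.47, limma adjusted p = 0.0036), past the threshold, as for 1 of the 5 oxidase transcripts and 7.44% of all genes (4.28% negative). Beside this, 4 of the 9 macrophage markers had a negative interaction past the threshold, with a median over the 9 of -0.77 on the log2 scale, and the part of that in the Cyba result was not tested.

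**Figure D2:**
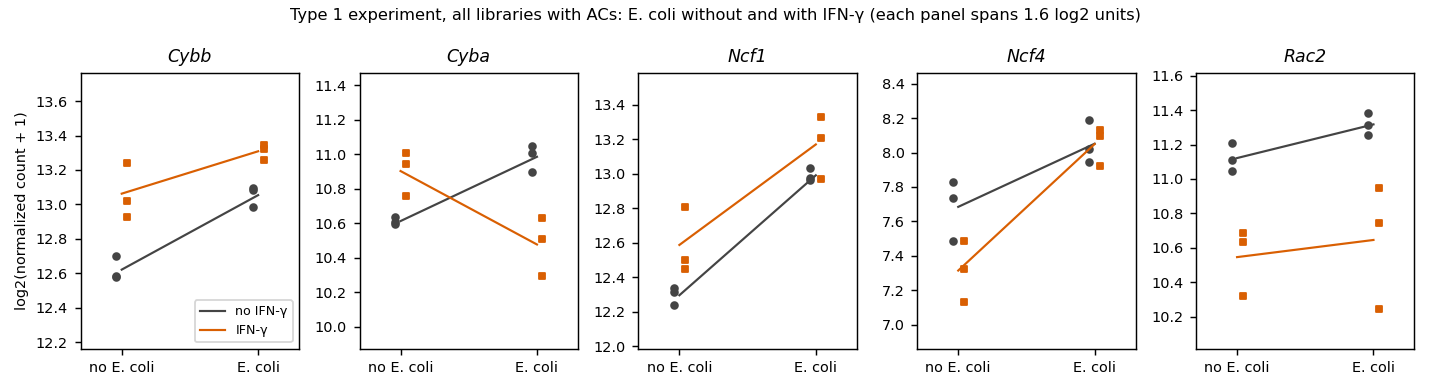
Levels as log2 of the normalized count plus 1 (vertical axes, which do not start at 0 and span 1.6 log2 units in each panel) without and with E. coli, for libraries without IFN-γ (dark circles) and with it (orange squares). Points are libraries (n = 3 per group) and lines join group means. The Cyba lines cross, with an interaction of -0.80, while the Cybb lines both slope upward and the Rac2 lines stay apart.

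Ncf1, the cytosolic organizer, followed E. coli. Its normalized counts were 5169, 4824 and 5087 in ACs and 8050, 8391 and 7992 in E. coli + ACs. In IFN-γ + ACs they were 5801, 5595 and 7174, and in IFN-γ + E. coli + ACs 10312, 9466 and 8028. Every library with E. coli lay above every library without it in the experiment, and replicate 3 was the highest of IFN-γ + ACs and the lowest of the combined group. The means were 5027 ± 180.5 with ACs, 8145 ± 215.5 with E. coli, 6190 ± 858.5 with IFN-γ and 9269 ± 1154 with both (SD, n = 3 each). The log2 difference of Ncf1 from ACs was 0.70 with E. coli (SE 0.11, 1.62-fold, limma adjusted p = 0.0003) and 0.88 with both stimuli (SE 0.11, 1.83-fold, limma adjusted p = 6.3e-06), both past the threshold. With IFN-γ alone it was 0.29 (1.22-fold, limma adjusted p = 0.066). The combination differed from E. coli alone by 0.18 on the log2 scale (95% interval -0.06 to 0.42, limma adjusted p = 0.27) and from IFN-γ alone by 0.58 (limma adjusted p = 0.0013), a 1.499-fold difference that just missed the threshold. It passed without replicate 3 of IFN-γ + ACs, at 0.69, or without replicate 3 of IFN-γ + E. coli + ACs, at 0.68. With the upper quartile of each library's own genes above 0 made equal, the combined difference of Ncf1 from ACs was 0.57 and short of 1.5-fold. The interaction for Ncf1 was -0.11 on the log2 scale, with a 95% interval from -0.45 to 0.23.

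Ncf4, which encodes the regulatory partner p40phox, had the fewest reads of the 5, and it lay lower with IFN-γ alone and higher with E. coli, whether or not IFN-γ was present. Its normalized counts were 212.2, 178.3 and 226.7 in ACs, 245.3, 259.2 and 290.3 in E. coli + ACs, 178.1, 159.3 and 139.5 in IFN-γ + ACs, and 279.4, 272.4 and 241.5 in IFN-γ + E. coli + ACs. The libraries with IFN-γ alone lay below all ACs libraries, and the groups with E. coli lay above them and overlapped each other. The means were 206 ± 24.8 with ACs, 265 ± 23.0 with E. coli, 159 ± 19.3 with IFN-γ and 264 ± 20.2 with both (SD, n = 3 each). Against ACs, the log2 difference of Ncf4 was 0.37 with E. coli (limma adjusted p = 0.12), -0.37 with IFN-γ (limma adjusted p = 0.079) and 0.36 with both (limma adjusted p = 0.065), each with an SE of 0.15 and none past the threshold. Between IFN-γ alone and the combination the difference was 0.73 (SE 0.15, 1.66-fold, limma adjusted p = 0.0019), so Ncf4 rose when E. coli was added to IFN-γ. It was the 1 transcript of 5 past the threshold in that comparison, beside 14.6% of all genes (5.96% higher). Between E. coli alone and the combination the log2 difference was 0.00, with a 95% interval from -0.32 to 0.32. In the IFN-γ libraries between 68 and 139 reads stand behind each value, which limits the precision.

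Rac2, the GTPase of the complex, went the other way from Cybb where IFN-γ was present. Its normalized counts were 2369, 2113 and 2206 in ACs and 2544, 2442 and 2669 in E. coli + ACs. They were 1585, 1648 and 1276 in IFN-γ + ACs and 1716, 1972 and 1213 in IFN-γ + E. coli + ACs. All 6 libraries with IFN-γ lay below all 6 without it in the Type 1 experiment, and replicate 3 was the lowest in both IFN-γ groups. The 6 with IFN-γ were also the shallower ones, and the part of depth in this was not tested. The means were 2229 ± 129.7 with ACs, 2552 ± 113.6 with E. coli, 1503 ± 199.1 with IFN-γ and 1634 ± 386.1 with both (SD, n = 3 each). The log2 difference of Rac2 from ACs was -0.58 with IFN-γ (SE 0.15, 0.671-fold, limma adjusted p = 0.006) and -0.48 with both (0.719-fold, limma adjusted p = 0.015), each short of 1.5-fold, and 0.20 with E. coli (limma adjusted p = 0.45). Against E. coli alone the combination was past the threshold, with Rac2 lower by -0.67 on the log2 scale (SE 0.15, 0.628-fold, limma adjusted p = 0.0024), 1 of 5 oxidase transcripts beside 19.4% of all genes (9.57% lower). Without replicate 3 of the combined group that difference was -0.47 and short of 1.5-fold. The IFN-γ difference itself passed the threshold, at -0.61 to -0.65, without replicate 2 of ACs, replicate 1 of IFN-γ + ACs or replicate 2 of IFN-γ + ACs, and so did the combined one, at -0.63, without replicate 2 of IFN-γ + E. coli + ACs. Siglecf, by whose product the cells were recovered, was also lower with IFN-γ, at 1514 to 1702 beside 3169 to 3367 normalized counts with ACs, and with both stimuli, at 1728 to 2019.9. It was lower than with ACs in E. coli + ACs too, at 2508 to 2817, where Rac2 was not. Ccr3, another eosinophil receptor, was at 3211 to 3385 with ACs, 2623 to 3275 with IFN-γ and 4005 to 4934 with both. Of the 7 eosinophil markers tested, 1 rose and 1 fell with E. coli and 0 rose and 3 fell with IFN-γ. With both 1 rose and 2 fell, beside 10.3%, 21.4% and 31.9% of all genes in that order. Their part in the Rac2 result was not tested.

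**Figure D3:**
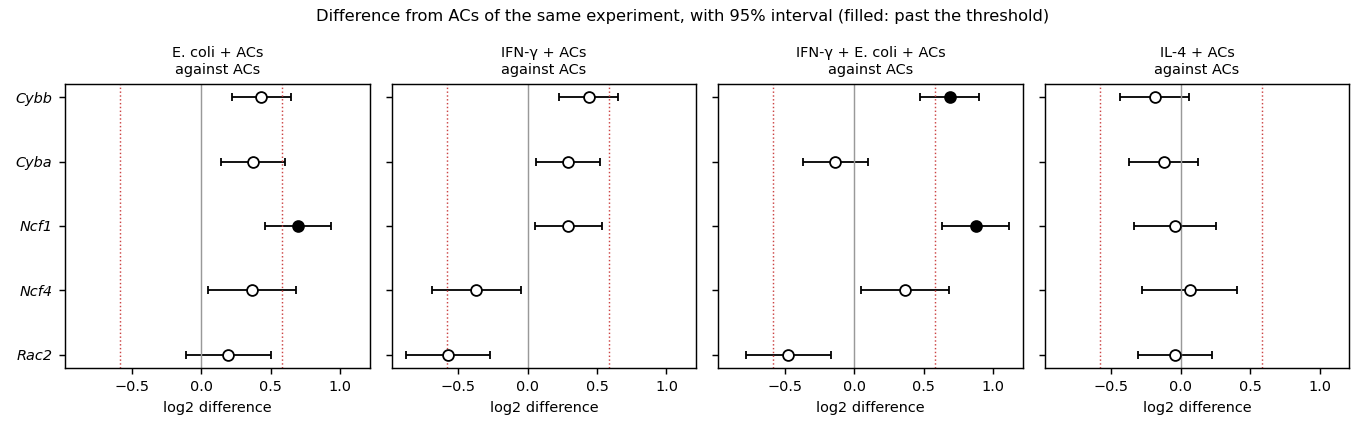
Log2 differences of the 5 transcripts from ACs of the same experiment (horizontal axes), with 95% intervals from limma. Filled points are past the threshold and dotted lines mark 1.5-fold. Ncf1 with E. coli (0.70) and with both stimuli (0.88) and Cybb with both (0.69) are filled, and with IL-4 all 5 intervals include 0.

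With IL-4 none of the 5 transcripts passed the threshold, and their log2 differences from ACs lay between -0.19 and 0.06. For Cybb the normalized counts were 6477, 6484 and 6101 with IL-4 + ACs and 7179, 6743 and 7838 with ACs of that experiment. For Cyba they were 2075, 2096 and 1974 with IL-4 and 2208, 2354 and 2134 without. Both membrane subunits thus lay lower in every IL-4 library than in any ACs library, by log2 differences of -0.19 (95% interval -0.44 to 0.06, limma adjusted p = 0.63) and -0.12 (95% interval -0.37 to 0.13, limma adjusted p = 0.75). The Ncf1 counts were 4780, 5367 and 5890 with IL-4 and 5646, 6088 and 4804 without. The Ncf4 counts were 432.8, 385.7 and 431.8 with IL-4 and 408.3, 450.8 and 343.1 without, the last of these from 64 reads. The Rac2 counts were 1859, 1809 and 1635 with IL-4 and 1911, 1883 and 1667 without. The groups overlapped for these 3 genes, with log2 differences of -0.04 for Ncf1, 0.06 for Ncf4 and -0.04 for Rac2 and limma adjusted p between 0.92 and 0.94. None of the 5 intervals reached 1.5-fold in either direction, the widest being -0.28 to 0.41 on the log2 scale for Ncf4.

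Across all 6 groups the order of levels differed from gene to gene. For Cybb it ran from the combined stimulus through IFN-γ and E. coli, which overlapped, to ACs of the IL-4 experiment and then IL-4 and ACs of the Type 1 experiment, which overlapped. For Cyba ACs of the IL-4 experiment came first, IL-4, E. coli and IFN-γ followed with overlap between neighbours, and ACs of the Type 1 experiment and the combined stimulus came last and overlapped. For Ncf1 the combined stimulus and E. coli led and overlapped, and each neighbour among the other 4 groups overlapped the next. For Ncf4 both groups of the IL-4 experiment led, at means of 417 and 401, ahead of all 4 Type 1 groups, at 159 to 265. Rac2 was highest with E. coli, then with ACs of the Type 1 experiment, and neighbours among the other 4 overlapped. Experiment and stimulus cannot be told apart across the 2 experiments. The 2 groups with the same ACs treatment differed without overlap in Cybb, Cyba, Ncf4 and Rac2, and the share of all genes that did so was not counted. This order is thus a description, and differences were tested only within an experiment.

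The ratio of partner transcripts in a library describes the same values in another way. Cybb over Cyba was 4.03 on average with ACs, 4.21 with E. coli and 4.53 with IFN-γ, and 7.17 with both, where the 3 libraries ranged from 6.19 to 8.16. No library of the other 3 groups of the Type 1 experiment exceeded 5.60. Rac1, the widely expressed GTPase that can replace Rac2, was higher in every stimulated library of the Type 1 experiment than in any ACs library, by log2 differences of 0.30 with E. coli (limma adjusted p = 0.048), 0.30 with IFN-γ (limma adjusted p = 0.027) and 0.52 with both (limma adjusted p = 0.00035), each short of 1.5-fold. Rac2 over Rac1 averaged 1.44 with ACs and 1.34 with E. coli, and 0.79 with IFN-γ and 0.73 with both, where no library exceeded 0.89. These ratios were not tested, and their size does not give the ratio of the proteins.

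Likeness of pattern was measured as the root mean square difference between 2 genes in log2 level relative to the ACs mean, over the 12 stimulated libraries of both experiments, among 5033 genes with a mean of at least 100. Cybb and Ncf1 were the nearest pair among the 5, at 0.22, although 125 genes (2.48%) lay nearer to Cybb and 33 (0.656%) nearer to Ncf1. For Cyba the nearest of the others was Ncf4, at 0.44, with 38.4% of genes nearer, and for Rac2 it was Ncf4, at 0.47, with 23.4% nearer. The closest genes of all were Ccr1, Ywhae and Derl1 for Cybb (0.12 to 0.13), Ppp2cb, Rbpj and Hnrnpd for Ncf1 (0.12 to 0.16) and Capns1 for Cyba (0.12). They were Epc1, Cdc42se1 and Fam53c for Ncf4 (0.13 to 0.17) and Coro1a, Grk6 and Abcf1 for Rac2 (0.13 to 0.15). Libraries of a group share their stimulus and depth differs between libraries, so this is a description of the pattern alone.

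**Figure D4:**
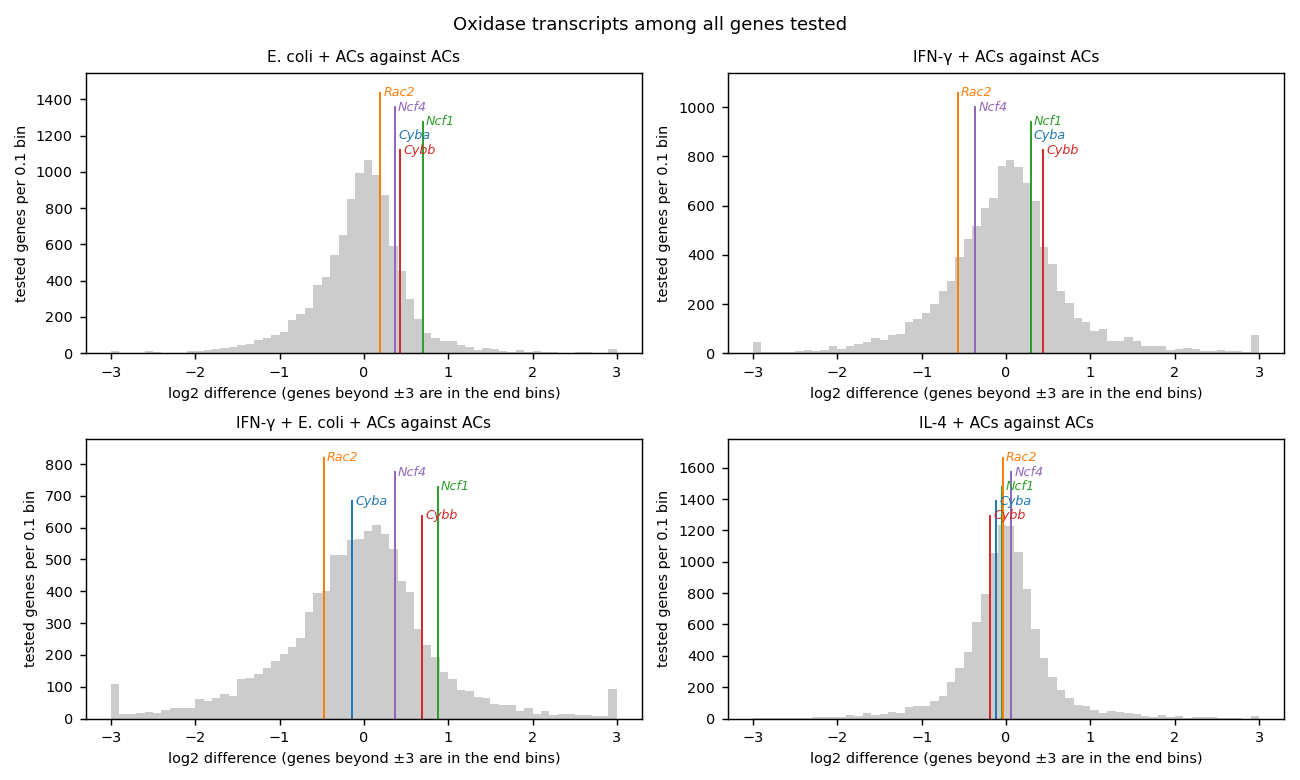
Number of tested genes (vertical axes) by log2 difference from ACs in bins of 0.1 (horizontal axes), with the 5 oxidase transcripts as coloured lines. With E. coli all 5 lie right of 0 and Ncf1, at 0.70, above 94.1% of genes. With IFN-γ they spread from Rac2 at -0.58, above 17.97% of genes, to Cybb at 0.44, above 79.8%, and with IL-4 they lie near the centre.

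Genes that steer the assembly of the oxidase mostly stayed short of the threshold. Of 13 such genes, all tested, 0 passed with E. coli, 1 fell with IFN-γ, and 1 rose and 1 fell with both, where 10.3%, 21.4% and 31.9% of all genes passed. The medians of the 13 log2 differences were 0.09, -0.13 and -0.02. The gene that fell was Hvcn1, the voltage-gated proton channel that carries out the charge and acid left by the oxidase. It had 347 to 428 normalized counts with ACs, 302 to 322 with E. coli, 168 to 222 with IFN-γ and 93.8 to 140 with both. Its log2 difference was -0.99 with IFN-γ (SE 0.16, limma adjusted p = 0.00015) and -1.72 with both (SE 0.16, 0.303-fold, limma adjusted p = 1.1e-07), both past the threshold. The gene that rose was Cybc1, whose product helps gp91phox mature, from 107 to 140 with ACs to 180 to 211 with both, a log2 difference of 0.64 (SE 0.16, limma adjusted p = 0.0043). Without replicate 3 of ACs that was 0.52 and short of 1.5-fold, as it was at 0.50 after rescaling to an equal upper quartile of the genes tested. With IFN-γ alone the Cybc1 difference was 0.55 and short of the threshold, and it passed, at 0.60 to 0.62, without replicate 1 of ACs, replicate 2 of ACs or replicate 1 of IFN-γ + ACs. When E. coli was added to IFN-γ, 3 of the 13 rose and 1 fell, beside 14.6% of all genes. Prkcb, a kinase that phosphorylates p47phox, rose by 0.81 on the log2 scale, Pik3cg and Pik3cd, leukocyte phosphoinositide kinases, rose by 0.63 and 0.70, and Hvcn1 fell (log2 difference -0.74). Pik3cg was short of 1.5-fold without replicate 1 (0.57) or replicate 3 (0.54) of the combined group and after rescaling to an equal upper quartile of the genes tested (0.58), and Hvcn1 without replicate 3 of the combined group (-0.58). The other NADPH oxidases and their partners (9 genes) were too low to test in either experiment.

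Genes that dispose of superoxide and peroxide moved in both directions. Of the 8 tested in the Type 1 experiment, 3 rose with E. coli, 4 rose and 1 fell with IFN-γ, and 4 rose and 1 fell with both, beside 10.3%, 21.4% and 31.9% of all genes in either direction. Their median log2 differences were 0.37, 0.85 and 0.68. Prdx1, a peroxide-reducing peroxiredoxin, had 803 to 1087 normalized counts with ACs, 1862 to 2250 with E. coli, 11854 to 13636 with IFN-γ and 6806 to 9026 with both. Its log2 difference was 1.18 with E. coli, 3.83 with IFN-γ (SE 0.13, 14.3-fold, limma adjusted p = 1.9e-13) and 3.07 with both. Sod2, the mitochondrial superoxide dismutase, rose by 1.34, 1.69 and 1.31 on the log2 scale, and Prdx5 by 0.68, 1.34 and 1.34, in the same order. Prdx6 rose by 1.44 with IFN-γ, and Cat, catalase, rose by 1.01 with both stimuli. Gpx1, the main cytosolic glutathione peroxidase, ran against them, with 10392 to 12033 normalized counts with ACs, 5130 to 5568 with IFN-γ and 3379 to 4846 with both. Its log2 difference was -1.08 with IFN-γ (SE 0.12, limma adjusted p = 1.3e-06) and -1.52 with both (SE 0.12, limma adjusted p = 9.2e-09). The interaction was negative and past the threshold for 4 of the 8 (4.28% of all genes), namely Sod2 (-1.73), Prdx1 (-1.94), Prdx5 (-0.69) and Prdx6 (-0.70), beside Cyba (-0.80) among the oxidase transcripts.

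The list for NADPH supply held 7 genes of the pathways that make NADPH, the electron donor, and not each of them makes it directly. Of the 7, 2 rose and 1 fell with E. coli, 3 rose and 0 fell with IFN-γ, and 3 rose and 2 fell with both, beside the same shares of all genes. Their median log2 differences were 0.45, 0.53 and 0.31. Pgd, of the pentose phosphate pathway, had 510 to 583 normalized counts with ACs and 1246 to 1520 with both stimuli, and rose by 0.79 with E. coli, 0.96 with IFN-γ and 1.39 with both on the log2 scale. G6pdx, the first enzyme of that pathway, rose by 1.16 with both (SE 0.13, 2.23-fold, limma adjusted p = 7.7e-07). Its differences with E. coli, 0.61, and IFN-γ, 0.59, lay just past 1.5-fold and were short of it, at 0.58 and 0.50, after rescaling to an equal upper quartile of the genes tested. For IFN-γ the same was so with a pseudocount of 5 (0.58), edgeR (0.57) and DESeq2 (0.58). The E. coli difference of G6pdx was also short of it without replicate 2 of ACs (0.51) or replicate 1 of E. coli + ACs (0.56), and the IFN-γ difference without replicate 2 of ACs (0.49), replicate 1 of IFN-γ + ACs (0.58) or replicate 2 of IFN-γ + ACs (0.48). Me1, malic enzyme, rose by 2.30 with IFN-γ and 1.504 with both from 11.4 to 21.1 normalized counts with ACs, or 14 to 26 reads. Idh1, cytosolic isocitrate dehydrogenase, fell with E. coli (log2 difference -0.95) and with both (-1.06), and Pgls with both (-0.94). With IL-4, 0 of 13 assembly genes and 0 of 7 NADPH genes passed, beside 1.09% of all genes, with medians of 0.18 and -0.23 on the log2 scale. Of 9 peroxide genes tested with IL-4 1 passed, Prdx6, which fell from 2314 to 2922 to 1453 to 1583 normalized counts (log2 difference -0.81, SE 0.13, limma adjusted p = 0.015). That call was lost without replicate 1 of IL-4 + ACs, replicate 2 of IL-4 + ACs or replicate 2 of ACs, at limma adjusted p between 0.065 and 0.09.

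**Figure D5:**
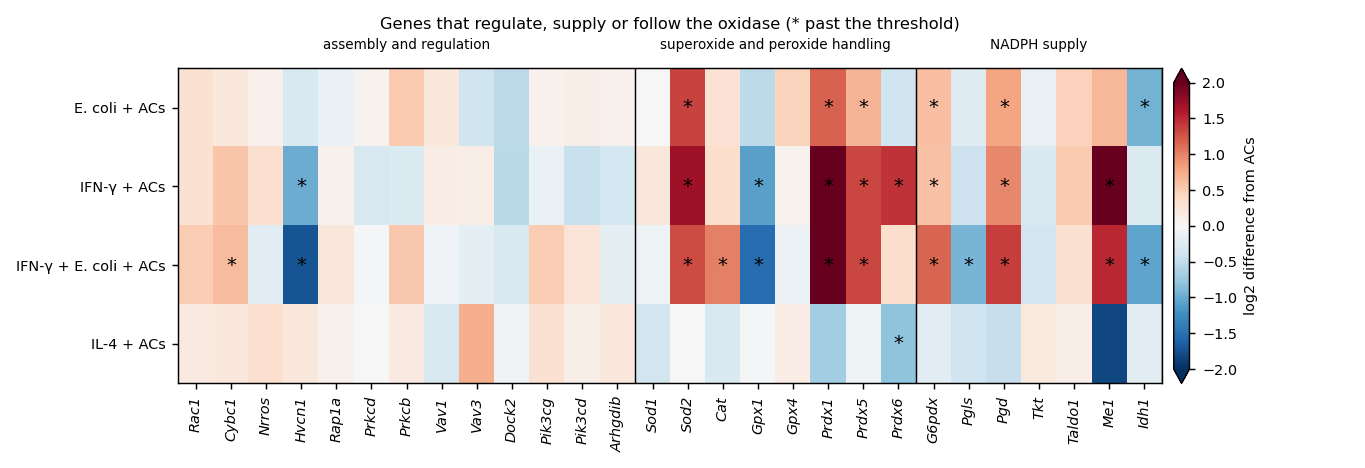
Log2 differences from ACs (colour, capped at -2 and 2) for the tested genes of 3 lists (columns) in the 4 comparisons (rows), with stars for those past the threshold. Hvcn1 and Gpx1 are blue with IFN-γ and with both stimuli, and Prdx1, Sod2 and Prdx5 are red in all 3 Type 1 comparisons, while the IL-4 row holds 1 star, for Prdx6.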

How the data were processed

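RNA sequencing was performed by CEL-Seq2, which reads the 3′ ends of transcripts, on 18 libraries in 6 groups of 3. The authors deposited, per gene and library, a signal, namely the gene's read count over a DESeq2 size factor. Their processing notes name TopHat2 2.1.0, HTSeq 0.6.1, DESeq2 1.26.0 and GRCm38, and the methods describe a second pipeline with STAR. Which one made the table and whether molecular identifiers or strand were used in counting are not given in the sources used here. Values were whole multiples of 1 read (within 0.02 of a whole read for 100.0% of values), so reads were recovered, with library totals of 779421 to 7782072 and a median total of 4461121. Of the identifiers 54409 matched a symbol with the version ignored and 37 did not.

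Differences were tested with limma 3.58.1 in R 4.3.3 (lmFit, eBayes with a trend) on log2(normalized count + 1), for genes with a mean of at least 10, with Benjamini-Hochberg adjustment. This scale understates the change of low genes. The 12 Type 1 libraries shared 1 fit and the 6 of the IL-4 experiment another. The threshold was an adjusted p under 0.05 and 1.5-fold, as in the study. The alternatives were a pseudocount of 5, no filter, a mean of at least 50, the replicate block, 2 upper quartile scalings, tests of the recovered reads with edgeR 4.0.16 or DESeq2 1.42.0, 1 fit of all libraries, no fold threshold and each library left out. The upper quartile over the genes tested, and leaving out both shallow libraries, were chosen after seeing the data. Fits were tested on simulated data for the comparisons with ACs, with changes larger than those of any oxidase transcript. Smaller changes, comparisons between stimuli and the interaction were not simulated.

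The study states that its experiments had biological replicates, but the labels do not tie a library to an animal, so p-values measure the spread between these libraries, which may be partly technical. ACs libraries were assigned to an experiment by the style of their description. Oxidase genes, gene lists and tests were chosen with earlier results of these data known. Named genes were the 5 of the oxidase, listed genes past the threshold, Rac1, Cybc1 and, for likeness, the 3 nearest genes (for Cyba only the nearest is reported here). Genes past the threshold in the comparisons between stimuli were named after their values were seen. One gene of the assembly list is not reported here. Tables were handled with Python 3.11.15 and pandas 2.3.3. Promoters were read from RefSeq's GRCm38.p6, with 3 of the 5 genes matched.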

Additional observations from a re-analysis of the deposited data

Results flagged for a closer look

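Cyba was singled out because its response to IFN-γ differed with and without E. coli by the test of the interaction itself. The log2 difference of IFN-γ was 0.29 without the bacteria and -0.51 with them, which gives -0.80 (SE 0.16, limma adjusted p = 0.0036). Leaving out any 1 of the 12 libraries kept it past the threshold, between -0.88 and -0.71, and so did every other alternative tried. All 3 libraries with both stimuli lay below the 3 with IFN-γ alone and the 3 with E. coli alone. Within the Type 1 experiment the macrophage marker sums were highest with IFN-γ alone, 26546 to 36333, and low with both, 8914 to 9775. They were low with E. coli alone too, at 7931 to 10252, where the mean of Cyba was the highest of that experiment. The part of macrophages in this result was not tested. Groups of 3 were not tested for outlying libraries.

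The same test of the interaction passed for 7 other genes of the 3 lists (2 of 13 for assembly, 4 of 8 for peroxide and 1 of 7 for NADPH supply), beside 7.44% of all genes, at log2 differences of -1.73 for Sod2, -1.94 for Prdx1, -0.69 for Prdx5, -0.70 for Prdx6, -0.67 for Taldo1, -0.63 for Nrros and 0.77 for Dock2. Nrros was short of the threshold in 5 other settings (limma adjusted p = 0.056 with the replicate block, for example) and when any of 9 libraries was left out, and Dock2 under the common upper quartile (limma adjusted p = 0.057) and when any of 6 libraries was left out.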

How the results depend on the processing

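Without the fold threshold, Cybb (0.43) and Cyba (0.37) with E. coli, Cybb (0.44) and Rac2 (-0.58) with IFN-γ, Rac2 (-0.48) with both, Cyba (-0.51) in both against E. coli, and Cyba (-0.43) and Ncf1 (0.58) in both against IFN-γ also counted as called, by construction. Scaling to a common upper quartile of each library's genes above 0 moved the median gene by -0.26 with IFN-γ, -0.30 with both, -0.24 for both against E. coli and 0.16 with IL-4. It then called Ncf4 (-0.63) and Rac2 (-0.84) with IFN-γ, Rac2 (-0.78) with both and Cyba (-0.76) in both against E. coli, left Cybb (0.38) and Ncf1 (0.57) with both short of 1.5-fold, and turned Cyba (0.041), Ncf1 (0.12) and Rac2 (0.12) with IL-4 and Ncf1 (-0.069) in both against E. coli. Of the other named genes it left G6pdx with E. coli (0.55) and IFN-γ (0.32), Cybc1 with both (0.34) and Prdx6 with IL-4 (-0.65) uncalled. Relative to that shift, Cybb (0.69) and Ncf1 (0.87) with both stood where they did by construction, since each library was divided by 1 factor. Under this scaling 22.7% of calls with both stimuli, 26.2% with IFN-γ and 22.1% in both against E. coli were higher. With the upper quartile over the genes tested, chosen after seeing the data, the shifts were -0.09, -0.14 and -0.11 with IFN-γ, with both and for both against E. coli. Rac2 was then called with IFN-γ (-0.66) and with both (-0.62) and Cyba in both against E. coli (-0.62), Cybb with both (0.55) was not, and 34.4% of calls with both stimuli were higher. edgeR called Rac2 with IFN-γ (-0.59), edgeR and DESeq2 called Ncf1 in both against IFN-γ (0.61 each), and both turned Ncf4 in both against E. coli (0.0041 and 0.013).

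The 116 genes called with IL-4 became 208 without the filter, 27 under the common upper quartile, 212 with edgeR, 209 with DESeq2, 221 in 1 fit of all libraries and 656 without both shallow libraries, where Ncf4 was -0.0703. The count of interactions, 756, became 495 in 1 fit. The replicate block gave 74 genes with IL-4 and changed no oxidase call. The labels do not say whether same-numbered libraries share more than a number. Their residual correlations ran from -0.089 to 0.085 in the Type 1 experiment and from 0.0005 to 0.021 in the IL-4 experiment. With groups of 3 these values cannot exclude a shared animal or batch, and both replicate 3 libraries of the IL-4 experiment were shallow.

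With each library left out in turn, the log2 difference of Rac2 ranged from -0.65 to -0.46 with IFN-γ, -0.63 to -0.28 with both, -0.10 to 0.013 with IL-4, -0.82 to -0.47 in both against E. coli, -0.050 to 0.30 in both against IFN-γ and -0.25 to 0.10 for the interaction. In both against E. coli, Cyba ranged from -0.59 (without replicate 2 of the combined group, past the threshold) to -0.42 and Ncf4 from -0.056 to 0.065, and in both against IFN-γ Ncf1 ranged from 0.50 to 0.69. With IL-4, Ncf1 ranged from -0.14 to 0.035 and Ncf4 from -0.044 to 0.15. The IL-4 count ran from 47 to 130, and was 47 and 57 without replicate 1 or 2 of IL-4 + ACs and 62 and 61 without replicate 1 or 2 of ACs. The interaction count ran from 400 to 1026, and was 439, 400 and 486 without replicate 3 of ACs, replicate 1 of E. coli + ACs or replicate 2 of IFN-γ + ACs. Where no cause is named, the cause was not tested. Ncf4 rests on the fewest reads of the 5, and in the shallow libraries 1 read stands for a normalized count of 5.14 or 5.36.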
